A study of Homo sapiens with 6 samples.

Results

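The regions described here are 446 copies of SVA_D, a subfamily of the SVA retrotransposons, that lie between genes and near the start of one. They were chosen by position only: a copy on chromosomes 1 to 22 or X that overlaps no gene body of the deposited protein-coding gene table and lies at most 50000 bases from the nearest gene 5′ end. Of the 1546 SVA_D copies in the deposited tables, 1448 lie on those chromosomes and 768 of these are intergenic. The 446 copies made up 30.8% of the 1448. RNA came from HEK 293T, an immortalised human embryonic kidney cell line, in 2 groups of 3 libraries. The guide group had the genotype label CRISPRa and was transfected with dCas9-VP64, rtTA and a guide RNA against SVA_D. The no-guide group had the genotype label WT and received dCas9-VP64 and rtTA without that guide. All 6 titles name SunTag, and the labels name no other guide in the comparison cells. Separate cultures are not stated for the replicates, and the p-values below can therefore reflect technical spread alone.

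SVA elements are composite retrotransposons found in hominids. A complete copy starts with repeats of the hexamer CCCTCT, followed by an Alu-like part, a variable number of GC-rich tandem repeats and a part derived from an endogenous retrovirus, and ends in a poly(A) tail. They are moved by the L1 machinery and are normally silenced by KRAB zinc finger proteins, among them ZNF91 and ZNF611, through TRIM28 and by DNA methylation. CRISPR activation uses a Cas9 that cannot cut to bring an activator such as VP64 to the sites its guide matches. A guide against a repeat subfamily can match many copies at once, and copies near a gene start are placed where an activator could also act on that gene.

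The 446 copies were between 11 and 2808 bases long, with a median of 1472.5 bases, and 314 were at least 1000 bases long. The median of the other SVA_D copies was 1462 bases. For the 446 copies, the distance to the nearest gene 5′ end ran from 285 bases to the limit, with a median of 17147.5 bases. Of all 446, 360 lay upstream of the gene start and 86 lay beyond the far end of the gene, 226 pointed in the direction of that gene and 220 pointed against it. They had 381 distinct nearest genes, and 80 overlapped a non-coding gene of GENCODE 29. In 54 places neighbouring members were at most 1000 bases apart, so some members are pieces annotated side by side. Just outside the limit, SVA_D_dup192 near MAT2A, at 50105 bases, had 1, 0 and 4 counts in guide replicates 1, 2 and 3 and none without the guide.

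Counts were low. The SVA_D counts include a read pair at each place it aligns, so a count at one copy can hold pairs that came from a similar copy elsewhere. Gene counts ran from 16557854 to 22651168 per library, and SVA_D copy counts from 2608 to 4553. The 446 copies together held 826, 741 and 1404 counts in guide replicates 1, 2 and 3 and 707, 542 and 872 without the guide. A count of 3, the limit that a count of 0 allows, stood for 0.132 to 0.181 CPM (counts per 1000000 gene counts, the unit used below), and covers counting error only. Of the 446 copies, 327 had at least 1 count in the 6 libraries, 119 had none, 90 had 10 or more, and 21 had enough to enter the test. Replicate 3 of both groups carries another naming scheme in the file headers, so the main values are also given for replicates 1 and 2 alone. The 8 markers listed for the line were present, with means from 3.16 CPM (LHX1) and 6.35 CPM (PAX2) to 1401 CPM (VIM). Of 11 markers of other cells, the fibroblast gene COL1A1 averaged 7.38 CPM (1.68 to 18.0 CPM, highest in both replicate 3 libraries) and COL3A1 0.729 CPM. The other 9, of blood, endothelium and mature kidney, averaged at most 0.173 CPM. The part of such cells in the results was not tested.

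Summed over all 446 copies, levels were 39.7, 44.8 and 67.8 CPM in guide replicates 1, 2 and 3, and 31.2, 31.3 and 40.8 CPM without the guide. The guide libraries averaged 50.8 ± 15.0 CPM and the others 34.4 ± 5.53 CPM (SD, n = 3 each), a ratio of 1.47 or 0.56 on the log2 scale. Each guide library was above the no-guide library of its own number, by 0.35, 0.52 and 0.73 on the log2 scale, but the groups overlapped: guide replicate 1 lay below no-guide replicate 3. With replicates 1 and 2 alone the log2 ratio was 0.43. No test was made on the sum, because the regions were proposed with results of these data known. In bulk RNA, more cells expressing a copy and more RNA per cell cannot be told apart.

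**Figure D1:**
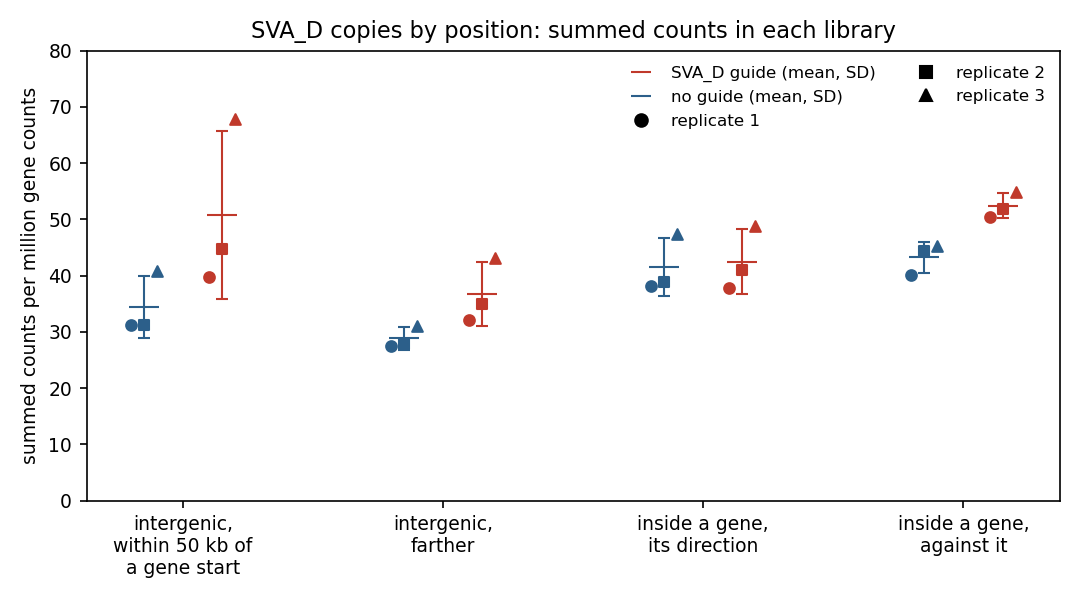
Summed CPM of SVA_D copies (vertical axis) in each of the 6 libraries, for copies grouped by position; points are libraries, horizontal ticks are means and bars are SDs of 3 libraries. Near gene starts, the guide mean was 50.8 CPM against 34.4 CPM without the guide, and guide replicate 3 stood highest at 67.8 CPM.

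The difference between the group means, 16.3 CPM, made up 48.5% of the 33.6 CPM by which all SVA_D copies on these chromosomes differed. Intergenic copies farther from genes had a log2 ratio of 0.35, copies inside a gene and against it 0.28, copies inside a gene in its direction 0.034, and the 6 copies inside genes of both strands -0.18. Every guide library was above every no-guide library for the farther copies and for those against a gene, and the groups overlapped for the others. Of all SVA_D copy counts in a library, the copies near gene starts held 24.0%, 24.9% and 30.8% in guide replicates 1, 2 and 3 and 21.5%, 20.8% and 24.2% without the guide. The 2 ranges overlapped narrowly, with guide replicate 1 under no-guide replicate 3. These are descriptions of sums, and the difference between the position classes was not tested.

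Copies with a count numbered 160, 169 and 239 in guide replicates 1, 2 and 3 and 152, 118 and 161 without the guide. The sums were also split by length. The 314 copies of at least 1000 bases summed to 37.5, 41.7 and 61.9 CPM in the guide libraries and 28.1, 27.3 and 35.7 CPM in the others, so every guide library was above every no-guide library (log2 ratio 0.63). The 132 shorter copies summed to 2.21, 3.08 and 5.94 CPM in the guide libraries and 3.09, 4.04 and 5.15 CPM in the others, a log2 ratio of -0.13 with overlapping groups. With replicates 1 and 2 alone these ratios were 0.52 and -0.43.

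Distance to the gene start showed no steady order. The log2 ratio was 0.54 for the 69 copies within 5000 bases, 0.47 for the 67 copies from there to 10000 bases, 0.78 for the 163 copies up to 25000 bases and 0.31 for the 147 farthest. In the last class, the same-numbered log2 ratios were -0.07, 0.12 and 0.70, so its higher mean rested on replicate 3. With replicates 1 and 2 alone the ratios of the 4 classes were 0.51, 0.44, 0.64 and 0.035. The 360 copies upstream of a gene start summed to 32.2, 36.6 and 51.2 CPM in the guide libraries and 24.6, 22.7 and 30.9 CPM in the others, and these groups did not overlap (log2 ratio 0.62, and 0.54 with replicates 1 and 2). The 86 copies beyond the gene had a log2 ratio of 0.36, and of 0.050 with replicates 1 and 2. Copies pointing the same way as the gene had a log2 ratio of 0.63 with overlapping groups, and those pointing against it 0.51 with no overlap. With replicates 1 and 2 alone the order turned, at 0.41 and 0.45. The 80 copies that overlap a non-coding gene had a log2 ratio of 0.31 and the 366 others 0.68, or 0.19 and 0.56 with replicates 1 and 2.

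**Figure D2:**
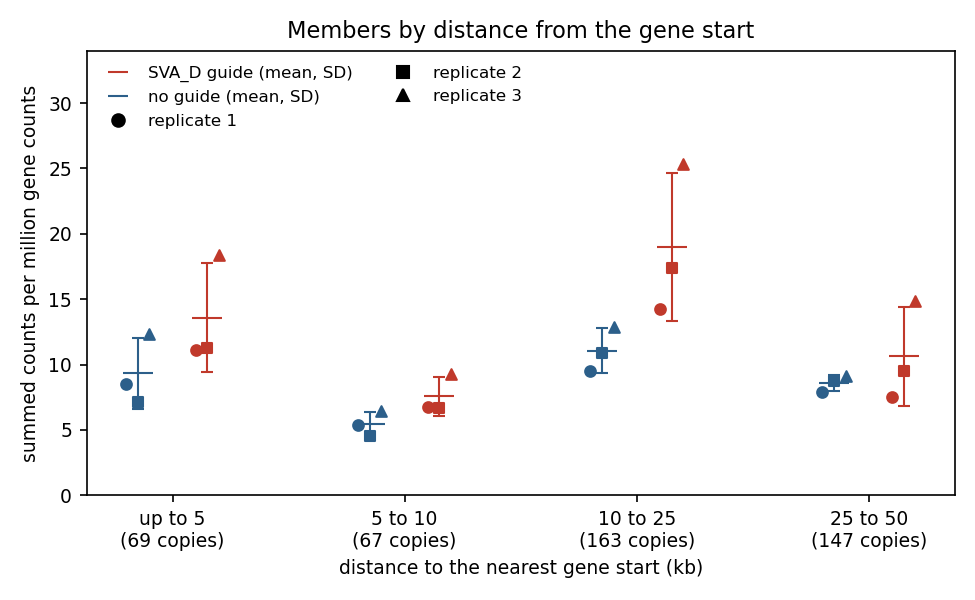
Summed CPM (vertical axis) of the 446 copies in 4 classes of distance to the nearest gene start (horizontal axis, kb), in each library; ticks are means and bars SDs of 3 libraries. The class up to 25 kb had the largest log2 ratio, 0.78, and in the farthest class guide replicate 1 (7.55 CPM) lay below all 3 no-guide libraries.

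In edgeR's quasi-likelihood test over all SVA_D copies with enough counts, 4 of the 21 tested copies near gene starts were called higher with the guide and 0 lower (Benjamini-Hochberg adjusted p threshold 0.05). That is 19.0%, beside 17.5% called higher and 0.0% called lower among all 63 copies tested and 16.7% among the other tested copies, so the share was near the background. All 4 called copies met the filter's minimum count of 10 through the guide libraries, where they were high. Their no-guide counts, 0 to 10 per library, would not have admitted them. The calls and the 19.0% therefore depend on entry through that group. Without adjustment, the count at an edgeR p under 0.05 was also 4 higher and 0 lower, beside 11 higher and 1 lower among all 63 copies tested. The number called higher was likewise 4 with DESeq2 and with limma-voom.

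SVA_D_dup149 lies at chr2:3590120-3592244 on the minus strand, 2588 bases upstream of COLEC11, which encodes a lectin of the complement system. It had 26, 23 and 71 counts in guide replicates 1, 2 and 3 and 4, 0 and 10 without the guide. Every guide library was above every no-guide library, and guide replicate 3 was the highest. With the guide it averaged 2.02 ± 1.22 CPM, compared with 0.215 ± 0.236 CPM in the other group (SD, n = 3 each), and edgeR gave a log2 fold change of 3.11 ± 0.71 (SE) with an adjusted p of 0.00889. Its neighbour SVA_D_dup148, at chr2:3568504-3570040 and nearest to the ribosomal protein gene RPS7, had 47, 36 and 70 counts with the guide and 53, 30 and 74 without it. These groups overlapped, at 2.61 ± 0.674 and 2.51 ± 0.879 CPM, and the edgeR log2 fold change was 0.02 ± 0.34.

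SVA_D_dup377, at chr4:76916101-76917314 on the plus strand and 17954 bases upstream of SOWAHB, had 16, 15 and 63 counts with the guide and 6, 1 and 4 without it. Its guide replicate 3 was far above the other guide libraries, though all 3 exceeded the no-guide libraries. The log2 fold change was 3.04 ± 0.68 with an edgeR adjusted p of 0.00889, and 2.16 with an adjusted p of 0.0630 in replicates 1 and 2 alone. SVA_D_dup1097, at chr14:105078601-105080045 on the minus strand, lies 13156 bases upstream of GPR132, a G protein-coupled receptor gene, and points the same way as that gene. It had 27, 21 and 35 counts with the guide and 0, 4 and 9 without it. The 3 guide libraries were close together here, at 1.42 ± 0.236 CPM against 0.217 ± 0.211 CPM. The log2 fold change was 2.68 ± 0.67 with an edgeR adjusted p of 0.0141.

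SVA_D_dup862, at chr10:114786699-114788346 on the plus strand, lies 18638 bases upstream of ABLIM1, which encodes an actin-binding LIM protein, and overlaps the lincRNA AL137025.1. It had 13, 14 and 29 counts with the guide and 0, 4 and 4 without it, with no overlap between the groups. The log2 fold change was 2.75 ± 0.70 with an edgeR adjusted p of 0.0141, and 2.71 with an adjusted p of 0.0662 in replicates 1 and 2 alone. Leaving out guide replicate 3 also ended the calls of SVA_D_dup862 (adjusted p 0.105) and SVA_D_dup377 (adjusted p 0.0573), while SVA_D_dup149 and SVA_D_dup1097 passed in each of the 14 alternatives run on them. Their sizes moved with single libraries: without no-guide replicate 3 the log2 fold changes were 4.14 and 3.59, without guide replicate 3 that of SVA_D_dup149 was 2.56, and without no-guide replicate 1 that of SVA_D_dup1097 was 2.09 and that of SVA_D_dup862 2.16. All 4 called copies lay upstream of their nearest gene, as did 80.7% of all 446, and all were at least 1000 bases long. Together they made up 32.1% of the rise of the sum, a share held by copies picked for a rise in these same libraries. The 425 copies below the test's filter made up 61.4%: they summed to 16.9, 20.7 and 33.3 CPM in the guide libraries and 12.4, 11.7 and 16.8 CPM in the others, so the lowest guide library lay just above the highest no-guide library.

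**Figure D3:**
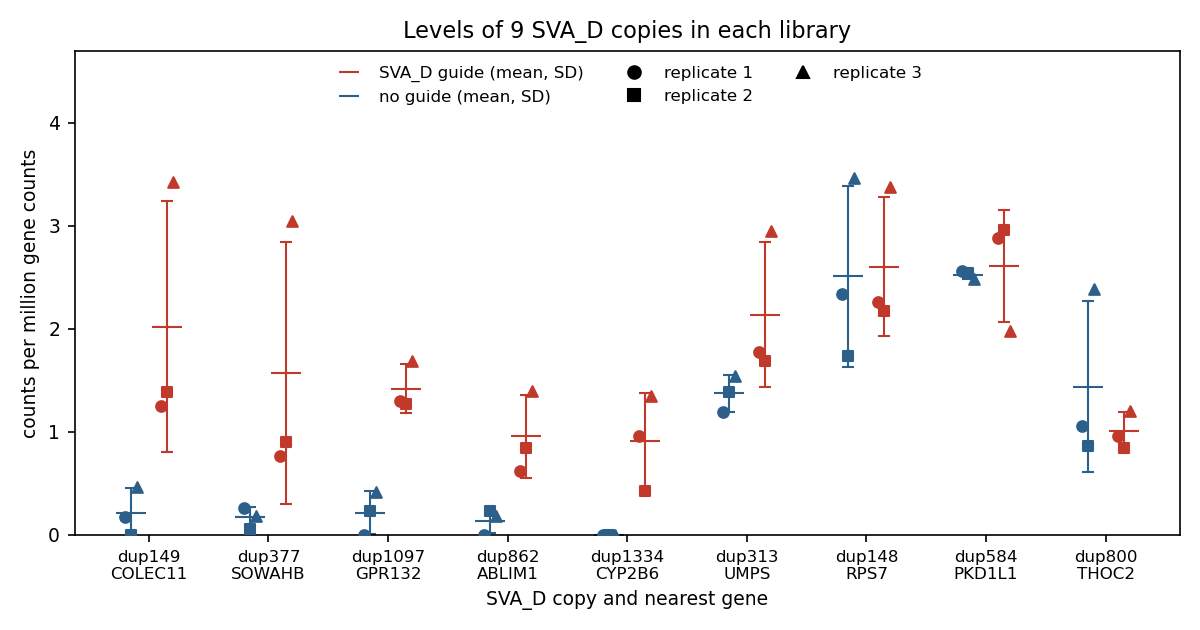
CPM (vertical axis) of 9 SVA_D copies in each library, with means (ticks) and SDs of 3 libraries (bars); the nearest gene stands under each copy. SVA_D_dup149 averaged 2.02 CPM with the guide against 0.215 CPM without it, whereas SVA_D_dup148, nearest to RPS7, averaged 2.61 and 2.51 CPM.

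The filter also kept out SVA_D_dup1334, at chr19:40964851-40967429 on the minus strand and 23853 bases upstream of CYP2B6, a drug-metabolising cytochrome P450 gene. It had 20, 7 and 28 counts with the guide and none in any no-guide library. From the counts summed over each group, that is at least 15.2-fold higher (lower end of the exact 95% interval, which covers counting error only). SVA_D_dup1334 was named for its rise in these same counts, and the interval does not allow for that choice or for spread between libraries. With no filter on low counts, edgeR called 6 members of the 327 with a count: the 4 above, SVA_D_dup1334 (adjusted p 5.42e-07) and SVA_D_dup844 (adjusted p 0.0472). The share called among all copies in that fit is not given, so the 6 cannot be set against a background. In the same fit the 4 above had edgeR adjusted p from 2.25e-06 (SVA_D_dup149) to 0.00697 (SVA_D_dup862). These values are not comparable with those of the filtered test. SVA_D_dup844 lies 17333 bases upstream of PSAP, the gene of prosaposin, and had 4, 3 and 9 counts with the guide and none without it, at least 4.07-fold higher by the same interval. It was named after its values were seen.

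Across the 446 copies, every guide library was above every no-guide library at 35 copies, 7.85%, and below at 1 copy, 0.224%. Among all 1448 copies on these chromosomes the shares were 5.46% and 0.967%. Of the 90 copies with 10 or more counts, 20 were above (22.2%) and 1 below (1.11%), beside 14.5% and 3.22% of all copies with that many counts. At least 8 counts with the guide and 0 without it were seen at 7 copies (1.57%, beside 0.691% of all copies), and the reverse at 0 (beside 0.0%). Whether these shares differ from those of other copies was not tested. Of the 35 copies, 34 were at least 1000 bases long, beside 276 of the 327 copies with a count. Upstream of the gene lay 30 (85.7%, beside 80.7% of all 446), and 19 pointed in its direction (beside 50.7% of all 446). These shares of side and direction were near those of all 446 copies. No count without the guide was seen at 10 of the 35, and guide replicate 3 was the highest library at 23 of the 35.

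Several of the 35 lie close to a gene start. SVA_D_dup1167, 1357 bases upstream of BCKDK, the kinase that inhibits branched-chain amino acid breakdown, had 11, 7 and 24 counts with the guide and 3, 0 and 5 without it. SVA_D_dup25, 1975 bases upstream of the ribosomal protein gene RPL11, had 3, 4 and 12 against 2, 1 and 2. SVA_D_dup777, 2301 bases upstream of PIN4, a peptidyl-prolyl isomerase gene, had 6, 3 and 15 against 2, 2 and 0. In all 3, guide replicate 3 had the most counts. SVA_D_dup8, 3066 bases upstream of the ubiquitin ligase gene UBE4B, had 7, 3 and 10 against 0, 0 and 1. Farther out, SVA_D_dup1387, 12128 bases upstream of E2F1, a cell cycle transcription factor gene, had 2, 4 and 7 against 1, 0 and 0. None of these 5 had enough counts for the filtered test, and they were named after their values were seen.

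Higher counts allowed 2 of the 35 to be tested without passing. SVA_D_dup313, beyond UMPS, a gene of uridine synthesis, had 37, 28 and 61 counts with the guide and 27, 24 and 33 without it. Its levels, 2.14 ± 0.701 and 1.37 ± 0.177 CPM, did not overlap, and edgeR gave a log2 fold change of 0.59 ± 0.38 with an adjusted p of 0.650. SVA_D_dup429 lies 6371 bases upstream of C5orf34 and overlaps the non-coding genes AC114956.1 and AC114956.2. It had 28, 11 and 26 counts with the guide and 15, 9 and 7 without it. Its log2 fold change was 1.05 ± 0.48 with an edgeR adjusted p of 0.247. The copy with every guide library below was SVA_D_dup766, beyond XAGE5, a cancer-testis antigen gene, with 1, 2 and 0 counts with the guide and 3, 6 and 3 without it.

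Of the 10 copies with the most counts, SVA_D_dup149 was called and the other 9 were not. SVA_D_dup584, near the polycystin-family gene PKD1L1, had 60, 49 and 41 counts with the guide and 58, 44 and 53 without it, at 2.61 ± 0.545 and 2.53 ± 0.0413 CPM. The ratio of its counts summed over each group, relative to the summed gene counts, was 1.02. Its exact 95% interval, 0.811 to 1.29, covers counting error only. SVA_D_dup1186 beyond EXOSC6, an RNA exosome gene, was at 1.63 ± 0.790 and 1.46 ± 0.485 CPM. Among tested copies with fewer counts, SVA_D_dup1327, 561 bases from ZNF566, a KRAB zinc finger gene, was at 0.997 ± 0.245 and 0.933 ± 0.187 CPM. SVA_D_dup431, upstream of PAIP1, was at 0.981 ± 0.171 and 0.930 ± 0.401 CPM. The groups overlapped in each of these 4. SVA_D_dup1265 near UTS2R, SVA_D_dup344 near BDH1 and SVA_D_dup1256 near CYB561 had edgeR log2 fold changes of -0.13, 0.08 and 0.20. Of the copies in this paragraph, SVA_D_dup1186, SVA_D_dup1327, SVA_D_dup431, SVA_D_dup344 and SVA_D_dup1256 overlap a non-coding gene. Pairs were counted without strand, and the part of non-coding transcripts in these counts was not tested. The 17 tested copies that were not called summed to 21.1 CPM in the guide libraries and 20.1 CPM in the others. These 17 were left after the copies called higher in the same libraries were set aside. Their small difference follows in part from that selection and is no separate result.

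**Figure D4:**
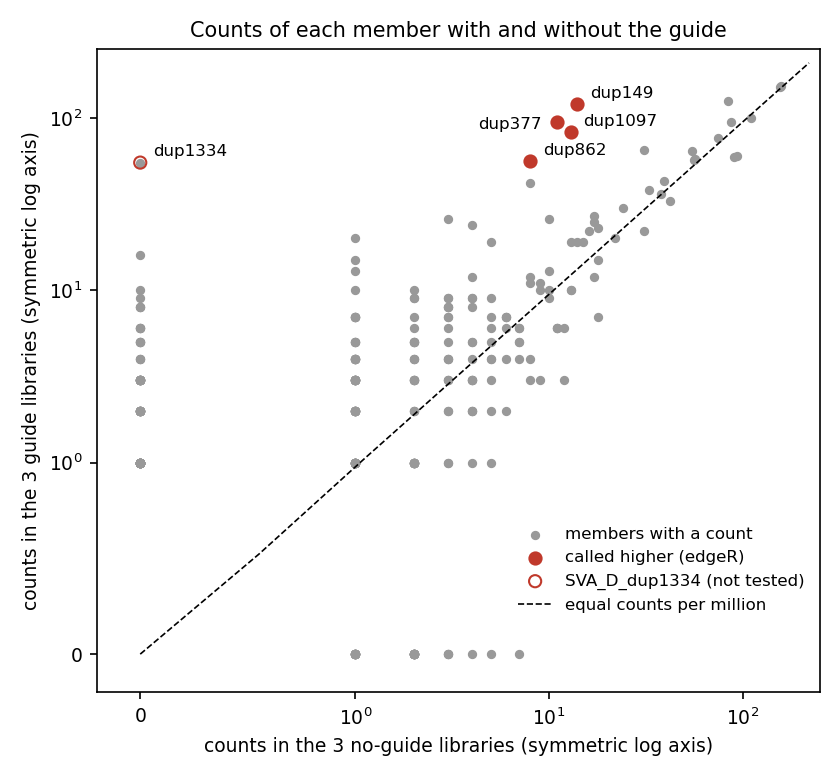
Counts of each of the 446 copies summed over the 3 guide libraries (vertical axis) against the 3 no-guide libraries (horizontal axis), both symmetric log axes that include 0; filled red points are the 4 called copies, the open point SVA_D_dup1334, and the dashed line marks equal CPM. Points with many counts lie near the line apart from the 4 called copies and a few others, and SVA_D_dup1334 stands at 55 counts against 0.

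The copies nearest to a gene start were not among those called. SVA_D_dup1100, 285 bases from GOLGA6L7 and overlapping the non-coding gene PDCD6IPP2, was at 0.603 ± 0.230 and 0.606 ± 0.196 CPM. SVA_D_dup800, 438 bases from THOC2, a gene of mRNA export, had 20, 14 and 25 counts with the guide and 24, 15 and 51 without it. Its no-guide replicate 3 was the highest library, the groups overlapped, and the edgeR log2 fold change was -0.53 ± 0.45 with an adjusted p of 0.866. SVA_D_dup876, upstream of TMEM9B and overlapping the non-coding gene TMEM9B-AS1, had the largest lower mean, with 1.06 CPM against 1.51 CPM. Its edgeR adjusted p was 0.866. SVA_D_dup1132 near TMEM202 and SVA_D_dup218 near FASTKD1 had too few counts for the test.

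The nearest genes were read from edgeR's test over all 13007 protein-coding genes with enough counts. Of the 381 nearest genes 271 were tested, and 0 were called (0.0% of all genes tested). At an unadjusted p under 0.05 there were also 0, beside 19 higher and 4 lower among all genes. Their median log2 fold change was 0.03 and 166 (61.3%) were above 0, beside a median of 0.0025 and 50.9% for all genes. For the 88 tested genes within 10000 bases, the median was 0.06 and 59 were above 0. Every guide library was above every no-guide library at 13 of the 271 genes (beside 2.72% of all genes) and below at 1 (beside 0.592%). For the 35 copies with every guide library above, 29 nearest genes were tested, with a median of 0.07 and 22 above 0. Of these, 0 were called and 0 had an edgeR p under 0.05. The 35 copies were picked by the same libraries that give the gene values, so this subset adds no separate evidence.

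The genes beside the called copies gave no call. COLEC11 was at 2.69, 3.87 and 2.80 CPM in the guide libraries and 2.91, 2.77 and 1.73 CPM in the others, and the groups overlapped. Its log2 fold change was 0.28 ± 0.37 with an edgeR adjusted p of 0.999992, beside 3.11 for SVA_D_dup149. ABLIM1 was at 79.4, 78.1 and 67.5 CPM in the guide libraries and 62.3, 79.2 and 69.9 CPM in the others, a log2 fold change of 0.05 ± 0.16. SOWAHB and GPR132 were under 1 CPM in every library and were not tested. CYP2B6 had no count in any library, also where SVA_D_dup1334 had counts. RefSeq's GRCh38.p14 promoter table gives for COLEC11, the gene nearest to a called copy, a window from 250 bases before to 50 bases after a start site, at chr2:3594862-3595161. It is shown because COLEC11 has the gene start closest to a called copy, and the capitals mark GGGCGG on either strand. The window lies past the gene 5′ end at 3594832, from which the 2588 bases to SVA_D_dup149 were measured.
COLEC11: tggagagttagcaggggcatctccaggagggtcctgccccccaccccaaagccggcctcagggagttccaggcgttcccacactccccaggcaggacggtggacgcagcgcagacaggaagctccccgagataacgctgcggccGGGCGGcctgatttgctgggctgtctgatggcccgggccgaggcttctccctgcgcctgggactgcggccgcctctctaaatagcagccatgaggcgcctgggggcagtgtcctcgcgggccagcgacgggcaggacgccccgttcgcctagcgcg
The window holds no CCCTCT and 1 GGGCGG, on both strands together. Another COLEC11 window, at chr2:3601656-3601955, holds no CCCTCT and 3 GGGCGG and is not shown. Of the nearest genes, 301 had a window in that table. CCCTCT, on either strand, was in 119 of their 411 windows and in 28.7% of all 35116 windows, GGGCGG in 228 (55.5%) and 45.0%, and GCCATNTT in 36 (8.76%) and 6.58%. A match is a description of letters only.

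Among the nearest genes, the smallest unadjusted p-values on the higher side were those of GRIK3, CORO1A, PKDCC, CLDN4 and AGFG2. GRIK3, a kainate receptor gene, lies 45223 bases from SVA_D_dup37, near the distance limit. Its levels were 1.25, 1.21 and 1.26 CPM in the guide libraries and 0.574, 0.866 and 0.515 CPM in the others. The groups did not overlap, with a log2 fold change of 0.88 ± 0.38. CORO1A, an actin-binding coronin gene 13122 bases from SVA_D_dup1165, was at 2.55, 3.68 and 10.2 CPM against 1.24, 2.19 and 3.56 CPM. SVA_D_dup1165 itself had 0, 3 and 5 counts with the guide and none without it. CLDN4, a tight junction gene 1417 bases from SVA_D_dup602, was at 1.11, 1.27 and 2.71 CPM against 0.662, 0.404 and 1.31 CPM, and SVA_D_dup602 had 1, 0 and 2 counts against none. Groups overlapped for both genes, with guide replicate 3 highest, and the log2 fold changes were 1.19 ± 0.56 and 1.05 ± 0.51. Without guide replicate 3 they were 0.46 and 0.61. On the lower side TMEM178A, PIGZ, ENSG00000254553 and TRIQK had log2 fold changes from -0.69 to -0.16. PIGZ, 4192 bases from SVA_D_dup343, had every guide library below every no-guide library. It was at 3.41, 3.68 and 3.53 CPM against 4.02, 4.79 and 4.59 CPM. The edgeR adjusted p was 0.999992 for each of these 9 genes.

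**Figure D5:**
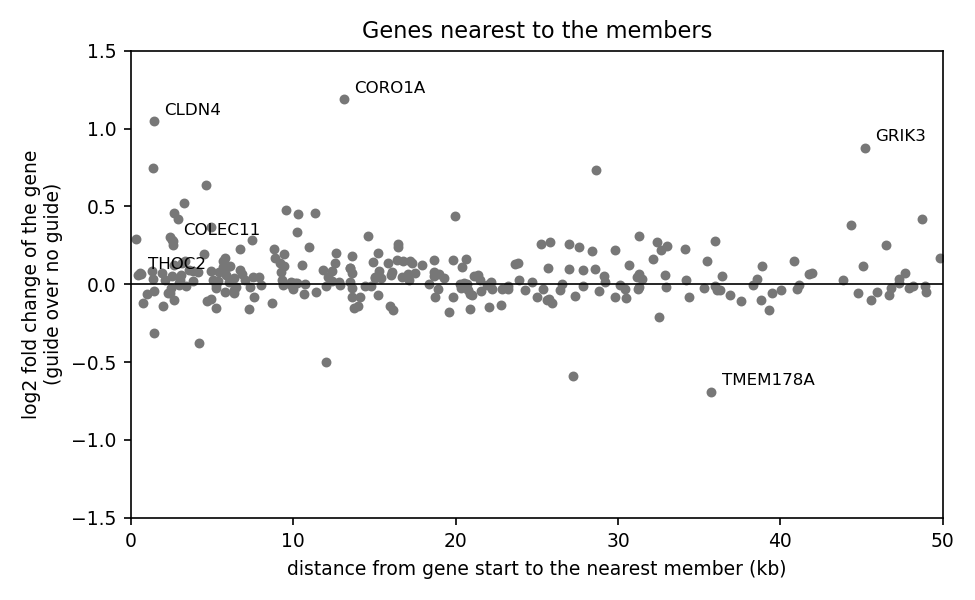
Log2 fold change with the guide over without it (vertical axis) of the 271 tested nearest genes against the distance from the gene start to its nearest SVA_D copy (horizontal axis, kb). Most points lie close to 0 at every distance; CORO1A (1.19) and CLDN4 (1.05) are the highest and TMEM178A (-0.69) the lowest, and none was called.

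Of the 24 genes listed as repressors of SVA elements or as parts of the TRIM28, HUSH, heterochromatin and DNA methylation machinery, 24 were tested and 0 were called in either direction. Their median log2 fold change was -0.0074, with a range of -0.17 to 0.17. ZNF91, a zinc finger repressor of SVA elements, was at 5.96, 6.22 and 8.26 CPM in the guide libraries and 5.65, 5.83 and 10.6 CPM in the others. TRIM28, the corepressor it recruits, was at 564, 498 and 454 CPM and at 498, 521 and 384 CPM. The groups overlapped for both genes. ZNF611, at 10.2 CPM with and 10.1 CPM without the guide on average, had a log2 fold change of -0.01 ± 0.31.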

How the data were processed

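Total RNA of 6 HEK 293T libraries was sequenced as read pairs, per the labels' protocols. STAR 2.7.0e, featureCounts 2.0.0 and FastQC 0.11.8 are named in the submitters' processing notes. The deposited values are raw counts. Per the file headers, the authors counted gene pairs without strand over whole protein-coding gene bodies of Ensembl 97, and pairs at each SVA_D copy without strand and with multi-mapping pairs counted at each alignment (GRCh38). The repeat subfamily tables were not used here. Without molecular identifiers, intervals and floors cover counting error only.

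Positions, nearest genes and sums were computed with Python 3.11.15. Sums and levels are raw counts per 1000000 gene counts (CPM), without TMM. Tests used edgeR 4.0.16 in R 4.3.3 (quasi-likelihood) on all copies and on all genes, with TMM library sizes from the gene table, filterByExpr at a minimum count of 10 and Benjamini-Hochberg adjustment at 0.05. The script was tested on simulated data. DESeq2 1.42.0 and limma 3.58.1 (voom), other normalizations, filters, distance limits and left-out libraries were alternatives.

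Same-numbered libraries deviated together over the genes, with r of 0.51, 0.60 and 0.84 between deviations from the group means. They were therefore compared by number, and a replicate block was run as an alternative. The main tests had no replicate term, so their p-values take no account of pairing. Libraries 1 and 2 correlated across numbers (0.57 and 0.60) at least as much as within them. The values therefore set replicate 3 against the rest and do not show that 1 pairs with 1 or 2 with 2.

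Members, lists and rules were chosen with earlier results of these data known. Named copies were those called, the 10 with most counts, the 5 largest rises and falls, the 5 nearest to a gene start and those at the distance limit. All other copies in the text, such as further tested copies, SVA_D_dup844 and SVA_D_dup1452, were named after their values were seen. Named genes were the nearest to those copies, the 5 smallest p-values on each side, ZNF91, ZNF611 and TRIM28; some items these rules name are not reported here. A planned count of motifs at the start of every copy needed a genome sequence and was not analysed here, and no guide sequence was used. Gene symbols were found for 19887 of 19986 identifiers in a symbol table and for 93 in GENCODE 29.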

Additional observations from a re-analysis of the deposited data

How the results depend on the processing

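The number of copies called higher near gene starts stayed at 4 with gene totals without TMM, DESeq2, limma-voom, a replicate block, a term for replicate 3 and library sizes from the SVA_D copies. It was 6 with no filter, 2 with replicates 1 and 2 only, 1 within 10000 bases, 7 within 100000 bases and 2 to 6 with single libraries left out, where 2 came without guide replicate 3. No copy was called lower and no nearest gene was called under any alternative run. The log2 ratio of the sum was 0.26 per 1000000 SVA_D counts, 0.53 as a replicate block (the mean of the same-numbered ratios, chosen after seeing the data) and 0.29 to 0.71 with single libraries left out, lowest without guide replicate 3. Copies with every guide library above numbered 60 with replicates 1 and 2 only, 14 within 10000 bases, 20 with at least 10 counts and 42 to 65 with single libraries left out. Those below numbered 2 with TMM, 4 per 1000000 SVA_D counts, 15 with replicates 1 and 2 only, 0 within 10000 bases, 4 within 100000 bases, 0 without non-coding overlap and 4 to 8 with single libraries left out. Fewer libraries per group, by construction, let more copies separate, and the other causes were not tested. Apart from the 20, the counts under these alternatives have no share over all SVA_D copies beside them. They therefore do not show how these copies compare with other copies. The replicate block changed no call.

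Some uncalled values changed sign, and none of these was called under any alternative run. With library sizes from the SVA_D copies the log2 fold changes were -0.23 (SVA_D_dup148), -0.21 (SVA_D_dup584), -0.16 (SVA_D_dup1186), -0.16 (SVA_D_dup344), -0.015 (SVA_D_dup1256), -0.19 (SVA_D_dup1327), -0.080 (SVA_D_dup317), -0.18 (SVA_D_dup431) and -0.025 (SVA_D_dup722). With replicates 1 and 2 only they were -0.39 (SVA_D_dup1186), -0.010 (SVA_D_dup1327), -0.14 (SVA_D_dup317), 0.20 (ZSCAN20), -0.17 (H1-10), 0.022 (ZNF91), 0.16 (ZNF611) and -0.0036 (TRIM28). SVA_D_dup584 was at -0.038 with limma-voom, -0.016 with the replicate block and -0.016 with a term for replicate 3, and H1-10 at -0.029, -0.025 and -0.025. Without TMM, ZSCAN20 was at 0.012, EXOSC6 at 0.017 and ZNF611 at 0.018. With single libraries left out, the ranges that crossed 0 were -0.16 to 0.22 (SVA_D_dup148), -0.12 to 0.22 (SVA_D_dup584), -0.80 to 0.13 (SVA_D_dup1265), -0.18 to 0.43 (SVA_D_dup1186), -0.069 to 0.19 (SVA_D_dup344), -0.019 to 0.52 (SVA_D_dup1256), -0.26 to 0.17 (SVA_D_dup1100), -0.085 to 0.19 (SVA_D_dup1327), -0.81 to 0.31 (SVA_D_dup1053), -0.14 to 0.39 (SVA_D_dup317), -0.23 to 0.27 (SVA_D_dup431), -0.075 to 0.51 (BDH1), -0.041 to 0.22 (FASTKD1), -0.036 to 0.14 (THOC2), -0.094 to 0.23 (ZNF566), -0.025 to 0.18 (ABLIM1), -0.28 to 0.11 (ZSCAN20), -0.31 to 0.16 (H1-10), -0.33 to 0.23 (EXOSC6), -0.55 to 0.84 (UTS2R), -0.034 to 0.32 (PSAP), -0.78 to 2.08 (A4GALT), -0.25 to 0.12 (ZNF91), -0.23 to 0.27 (ZNF611) and -0.12 to 0.18 (TRIM28). Depth limits every per-copy statement: 425 of the 446 copies were below the filter.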

Other observations

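Further members near genes named above gave these values. Beside GRIK3, SVA_D_dup37 had 5, 5 and 2 counts in guide replicates 1, 2 and 3 and 4, 0 and 0 without the guide, and SVA_D_dup38 had 0, 1 and 8 against 0, 2 and 0. Beside H1-10, a linker histone gene, SVA_D_dup316 had 1, 3 and 3 counts with the guide and 1, 0 and 0 without it. SVA_D_dup317, which lies farther out, had 12, 9 and 22 against 17, 7 and 15, and SVA_D_dup318 had 3, 3 and 16 against 5, 9 and 17. SVA_D_dup845, 23844 bases upstream of PSAP, had 0, 2 and 5 counts with the guide and 0, 1 and 0 without it. SVA_D_dup844, at 17333 bases from that gene, had none without the guide. SVA_D_dup1335, a 17-base piece next to SVA_D_dup1334, had no count in any library. SVA_D_dup1452, upstream of A4GALT, the gene of an enzyme that makes a glycolipid blood group antigen, had 7, 0 and 3 counts with the guide and none without it.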
